A study of Mus musculus with 6 samples.

Results

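Kinesins are motor proteins that use ATP to move along microtubules or to take microtubule ends apart. A set of them builds the mitotic spindle, moves chromosomes and completes cytokinesis, and these genes are switched on in cells that approach division. Others carry vesicles, mitochondria, endosomes and intraflagellar cargo in cells whether or not they divide. Bone marrow holds many dividing precursors of red cells, B cells and granulocytes beside non-dividing cells, so both kinds are expressed there.

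The genes described here are all 42 rows, of 22838 in the deposited table, whose symbol begins with Kif or Kifc followed by a digit. By known function 14 were placed among mitotic kinesins, 15 among transport kinesins and 12 among other kinesins, which act in cilia, in signalling or at microtubule ends, while Kif4-ps is a pseudogene. Transcripts had been measured by RNA sequencing in the tibial and femoral marrow of 3 Cbx2-/- mice and 3 wild-type mice, all 3 weeks old and of mixed 129 and C57BL/6 strain. Cbx2 encodes a chromodomain subunit of Polycomb repressive complex 1. The labels give a mean body weight of 4.0 g for the Cbx2-/- group and 12.3 g for the wild-type group, and describe neither the allele nor the sex. The title of the series sets the question of osteoblastic and adipogenic differentiation after birth. The kinesins are no part of that question as it is stated.

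Values are FPKM, which divides fragments by transcript length and by the library total, so levels can be compared between genes. A difference is the change in log2(FPKM + 1), Cbx2-/- minus wild type. The call was made by limma over 12006 genes, those that reached 1 FPKM in 3 or more libraries, at an adjusted p under 0.05. In these bulk samples fewer cells of a type and less RNA per cell cannot be told apart.

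Cbx2 itself was at 2.11, 1.87 and 1.88 FPKM in the Cbx2-/- libraries, against 2.90, 3.83 and 2.75 FPKM in the wild-type libraries. The difference of -0.49 ± 0.15 (SE) had a limma adjusted p of 0.0558, and an exact two-sided permutation test gave p = 0.1, the smallest that 3 against 3 allow. Skeletal muscle markers summed to 382 and 447 FPKM in Cbx2-/- replicates 1 and 2 and to 14.01 FPKM in replicate 3, against 23.1 to 33.5 FPKM in wild type. Y-linked transcripts were present in replicate 1 of each genotype and at most 0.087 FPKM in the other libraries. Over all tested genes 998 were lower and 1057 higher, a split that became 982 and 598 when FPKM was rescaled to the sum without haemoglobin genes.

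Stretches of 120 bases that end at the annotated transcription start are shown for 2 mitotic kinesin genes that fell (Kif11 and Kif18b), for the duplicated mitotic genes Kifc1 and Kifc5b, and for a transport kinesin gene that rose (Kif1c). They are RefSeq sequences of GRCm38.p6, the assembly of mm10, written 5′ to 3′ on the gene's own strand. Capitals mark matches, on either strand, to TTTGAA or TTTAAA, the letters of the cell cycle genes homology region known from promoters of mitotic genes, and to CCAAT, the letters of a common promoter box.
Kif11 (chr19:37376262-37376381, plus strand): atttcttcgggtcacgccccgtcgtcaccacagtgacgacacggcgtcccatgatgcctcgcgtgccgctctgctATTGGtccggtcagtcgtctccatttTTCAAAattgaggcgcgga
Kif18b (chr11:102925125-102925244, minus strand): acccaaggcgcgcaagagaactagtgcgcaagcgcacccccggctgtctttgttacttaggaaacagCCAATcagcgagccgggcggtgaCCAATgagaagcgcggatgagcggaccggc
Kifc1 (chr17:33890634-33890753, minus strand): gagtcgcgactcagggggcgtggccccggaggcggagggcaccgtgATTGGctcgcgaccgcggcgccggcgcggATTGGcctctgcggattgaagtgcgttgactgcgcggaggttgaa
Kifc5b (chr17:26916971-26917090, plus strand): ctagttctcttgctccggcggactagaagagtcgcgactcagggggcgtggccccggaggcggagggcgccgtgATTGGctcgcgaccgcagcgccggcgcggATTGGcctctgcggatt
Kif1c (chr11:70700428-70700547, plus strand): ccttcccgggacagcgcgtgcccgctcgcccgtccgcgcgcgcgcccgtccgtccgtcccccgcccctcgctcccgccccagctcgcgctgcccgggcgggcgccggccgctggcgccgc

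Over the 250 bases before the start, searched on both strands, TTTGAA or TTTAAA stood before 5 of the 12 tested mitotic kinesins with an entry in the promoter table. These were Kif11, Kif14, Kif15, Kif22 and Kif2c. Neither was found before the 8 transport kinesins or the 3 other tested kinesins with an entry, and 28.1% of all 27025 genes of the table held at least 1 of them. CCAAT stood before 8 of the 12 mitotic kinesins, 3 of the 8 transport kinesins (Kif1b, Kif3a and Kif3b) and 37.5% of all genes of that table. None of these letters was found before the mitotic genes Kif18a and Kif20b, so the stretches printed above do not stand for their groups. In Kif11 the match to TTTGAA began 19 bases and the match to CCAAT 45 bases before the start, and in Kif18b the matches to CCAAT began 53 and 30 bases before it. The RefSeq start lies inside the GENCODE vM21 gene for 6 of the 12 mitotic and 4 of the 8 transport kinesins. It does so by 28 bases in Kifc1 and by more in Kif13a, among others. Of the genes with TTTGAA or TTTAAA, it does so in Kif14, Kif15, Kif22 and Kif2c, by 1505, 35, 51 and 3867 bases. Such windows lie partly or wholly within the annotated gene. The 250-base windows differed in composition, with 62% G and C before Kif11, 59.6% before Kif18b and 70.8% before Kif1c. A match of these short letters is a description of the sequence and does not show a bound site.

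Mitotic kinesins were lower in Cbx2-/- marrow. In all 13 that could be tested, each Cbx2-/- library lay below each wild-type library, which was so for 18.2% of all tested genes. Of these 13, 8 fell (limma adjusted p under 0.05, against 8.31% of all tested genes that fell), 0 rose and 5 did not pass, and 12 had an unadjusted p under 0.05, all lower, against 32.5% of all tested genes in either direction. The mean FPKM in Cbx2-/- marrow was 45.1% to 78.5% of the wild-type mean, with a median difference of -0.75 against 0.02 over all tested genes. Kif2b, a spindle depolymerase, was listed at 0 in every library.

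**Figure D1:**
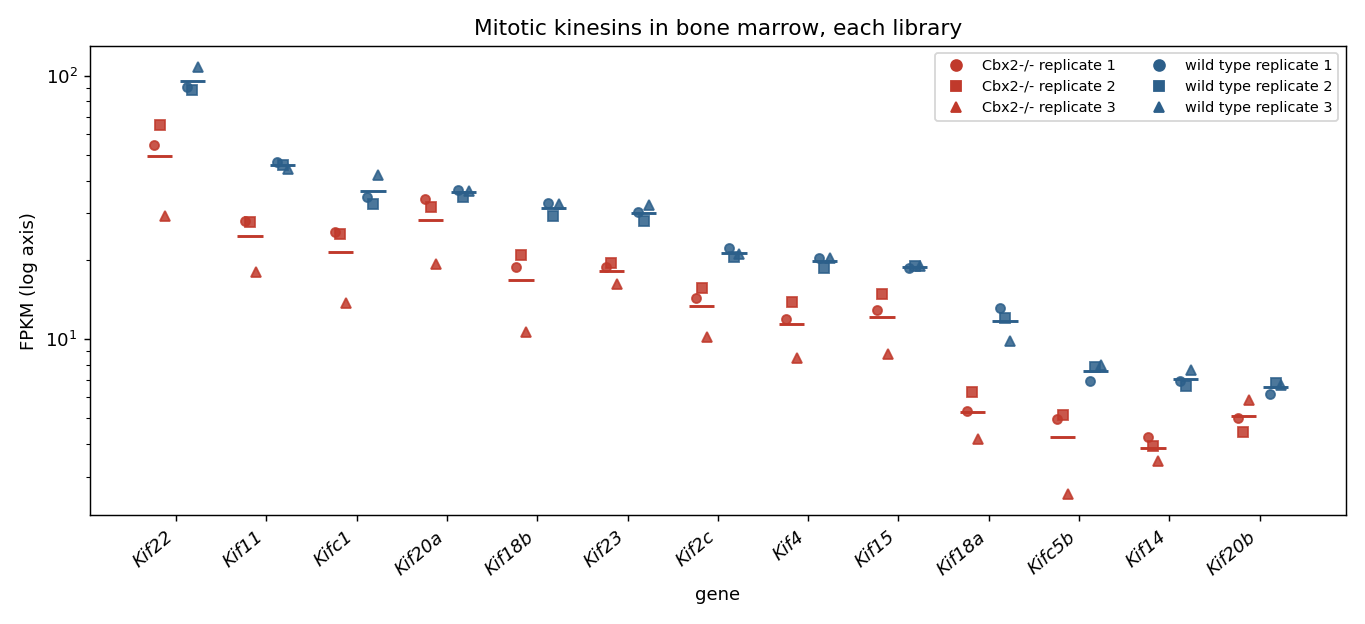
FPKM of the 13 tested mitotic kinesins (log axis), with 1 marker shape per replicate number, red for Cbx2-/- and blue for wild type, and bars at the group means. The red points lie below the blue points in every gene, and Cbx2-/- replicate 3 is the lowest library in 12 of the 13.

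Among the motors that build and shape the spindle, Kif11 fell and Kif15, Kifc1 and Kifc5b did not pass. Kif11 (chromosome 19, 37376403 to 37421859, plus strand), the bipolar motor that slides spindle microtubules apart, was at 28.2, 27.8 and 17.9 FPKM in Cbx2-/- marrow, against 47.2, 45.9 and 44.3 FPKM in wild type. It fell by 0.89 ± 0.19 (SE, limma adjusted p = 0.019). Kif15, which helps to keep the spindle bipolar beside Kif11, was at 12.9, 14.9 and 8.76 FPKM in Cbx2-/- and at 18.7, 18.9 and 19.0 FPKM in wild-type libraries. The groups did not overlap, but the adjusted p of Kif15 was 0.0604.

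Kifc1, a minus-end motor that focuses spindle poles, was at 25.5, 25.0 and 13.7 FPKM in Cbx2-/- and at 34.5, 32.7 and 42.1 FPKM in wild type (limma adjusted p = 0.0669). Its relative Kifc5b was at 4.98, 5.17 and 2.58 FPKM in Cbx2-/- and at 6.92, 7.82 and 7.99 FPKM in wild type (limma adjusted p = 0.0513). These genes are close copies: 38.6% of the distinct 50-base stretches of Kifc1 transcripts, the length of a read, also occur in Kifc5b transcripts, and 36.6% of those of Kifc5b occur in Kifc1. Their promoters are alike too, with 86% identity over 222 bases when they are shifted by 28 bases, and both carry the same pair of CCAAT matches shown above. How reads were divided between these genes is therefore uncertain, and their separate values are too.

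Motors that act at microtubule ends and on chromosomes included the genes with the largest differences, Kif18a and Kif22. Kif18a (chromosome 2, 109280738 to 109341747, plus strand), which limits chromosome oscillation at the metaphase plate, was at 5.34, 6.28 and 4.18 FPKM in Cbx2-/- and at 13.2, 12.03 and 9.83 FPKM in wild type. It fell by 1.02 ± 0.17 (SE, limma adjusted p = 0.00785), to 45.1% of the wild-type mean, the lowest share of the 13 genes. Its paralog Kif18b, a motor of astral microtubule ends, was at 18.7, 20.8 and 10.7 FPKM in Cbx2-/- and at 33.0, 29.3 and 32.5 FPKM in wild type, and fell (limma adjusted p = 0.0336). Kif2c, the depolymerase of the centromere, fell to 13.4 ± 2.85 FPKM in Cbx2-/- marrow, against 21.3 ± 0.834 FPKM in wild type (SD, n = 3 each, limma adjusted p = 0.0396).

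The chromokinesins, which bind chromosome arms, fell as well. Kif22 (chromosome 7, 127027729 to 127042471, minus strand), the most abundant kinesin in both genotypes, was at 54.6, 64.9 and 29.4 FPKM in Cbx2-/- and at 90.4, 88.2 and 108 FPKM in wild type. Its difference of -0.997 ± 0.29 (SE) had a limma adjusted p of 0.0493, just under the threshold. Kif4, a chromokinesin also found at the central spindle, was at 11.9, 13.9 and 8.50 FPKM in Cbx2-/- and at 20.3, 18.6 and 20.4 FPKM in wild type, and fell (limma adjusted p = 0.0267). Of the 50-base stretches of Kif4, 14.2% also occur in the overlapping gene Pdzd11 when strand is ignored.

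Of the motors of cytokinesis, Kif23 and Kif14 fell and Kif20a and Kif20b did not pass. Kif23, the motor subunit of centralspindlin, was at 18.8, 19.5 and 16.2 FPKM in Cbx2-/- and at 30.3, 28.2 and 32.2 FPKM in wild type, and fell by 0.71 ± 0.14 (SE, limma adjusted p = 0.0136). Kif14 (chromosome 1, 136466343 to 136531511, plus strand), a midbody motor, was at 4.23, 3.93 and 3.44 FPKM in Cbx2-/- and at 6.91, 6.65 and 7.60 FPKM in wild type, and fell by 0.73 ± 0.13 (SE, limma adjusted p = 0.00906). In both genes the spread within a genotype was small beside the distance between genotypes.

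Kif20a and Kif20b, of the same kinesin-6 family as Kif23, had the smallest differences of the 13 genes. Kif20a, a central spindle motor, was at 34.1, 31.8 and 19.2 FPKM in Cbx2-/- and at 37.0, 34.7 and 36.6 FPKM in wild type, with a difference of -0.38 ± 0.22 (SE, limma adjusted p = 0.28). Kif20b, a midbody motor, was at 4.99, 4.45 and 5.86 FPKM in Cbx2-/- and at 6.19, 6.81 and 6.70 FPKM in wild type, with a difference of -0.32 ± 0.13 (SE, limma adjusted p = 0.149). Whether these genes differed less than Kif23 was not tested. Kif20a shares 25.2% of its 50-base stretches with the overlapping gene Cdc23 on the other strand, and its locus in the deposited table spans 53.1 kb, against 8.67 kb for the gene in GENCODE vM21.

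In wild-type marrow the order of levels ran from Kif22 at 95.5 ± 10.7 FPKM and Kif11 at 45.8 ± 1.46 FPKM down to Kif14 at 7.05 ± 0.492 FPKM and Kif20b at 6.56 ± 0.331 FPKM (SD, n = 3). Wild-type values overlapped across libraries for Kifc1 and Kif20a, for Kif18b and Kif23, for Kif4 and Kif15, and for Kifc5b, Kif14 and Kif20b as neighbours. Within each wild-type library Kif18b still lay above Kif23 and Kifc5b above Kif14, in places by small margins. The order of the other neighbours changed between libraries and is not resolved. In Cbx2-/- marrow Kif22 was again first, at 49.7 ± 18.3 FPKM, followed by Kif20a at 28.4 ± 8.01 FPKM and Kif11 at 24.6 ± 5.80 FPKM (SD, n = 3). Across libraries the Cbx2-/- values of these neighbours overlapped, but within each Cbx2-/- library Kif22 lay above Kif20a and Kif20a above Kif11. The level of Kif20a carries the limit given above for its overlap with Cdc23.

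Cbx2-/- replicate 3 stood apart from the other Cbx2-/- libraries. The 13 genes had a median of 62.1%, 68.0% and 43.1% of the wild-type mean in Cbx2-/- replicates 1, 2 and 3. Replicate 3 was the lowest Cbx2-/- library in 12 of them, and the highest in Kif20b. Without that library 12 of the 13 genes were called, all but Kif20a. With both libraries with muscle transcripts left out, replicate 3 was the only Cbx2-/- library, and the spread came from wild type alone. The median difference was then -1.13. With wild-type replicate 1, 2 or 3 left out 2 were called, without Cbx2-/- replicate 1 there were 4, and without Cbx2-/- replicate 2 there were 10. Kif18a and Kif14 were called in all 20 alternative fits, and all 13 differences stayed negative in each of them.

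Genes that work with these motors were read from the same fit. Of 29 tested spindle and cytokinesis partners, 15 fell (8.31% of all tested genes did) and 0 rose, with a median difference of -0.77. At an unadjusted p under 0.05 there were 24, all lower (32.5% of all tested genes in either direction). The groups did not overlap in 27 (18.2% of all tested genes with Cbx2-/- below). The number that fell was 4 or 5 with a wild-type library left out, 8 without Cbx2-/- replicate 1, and 20 without replicate 2 or 3. With replicate 3 as the only Cbx2-/- library the median difference was -1.19. Prc1, the microtubule bundler that Kif4 and Kif23 meet at the central spindle, was at 34.8, 33.5 and 21.4 FPKM in Cbx2-/- and at 61.6, 59.7 and 62.4 FPKM in wild type, and fell by 1.04 ± 0.20 (SE, limma adjusted p = 0.0127). Cenpe, a kinesin-7 motor of the kinetochore whose symbol lies outside the rule, was at 7.93, 7.03 and 6.29 FPKM in Cbx2-/- and at 11.7, 11.9 and 15.0 FPKM in wild type, and fell (limma adjusted p = 0.0122).

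Racgap1, which forms centralspindlin with Kif23, was at 49.9, 52.2 and 30.0 FPKM in Cbx2-/- and at 62.3, 57.1 and 69.3 FPKM in wild type, without passing (limma adjusted p = 0.148). Among subunits of the chromosomal passenger complex, Birc5 fell to 151 ± 67.0 FPKM in Cbx2-/- marrow, against 355 ± 43.9 FPKM in wild type (SD, n = 3 each, limma adjusted p = 0.039). The kinase of that complex, Aurkb, was at 48.8 ± 15.4 FPKM in Cbx2-/- and 70.4 ± 6.64 FPKM in wild type (SD, n = 3 each, limma adjusted p = 0.165), and the subunit Cdca8 had an adjusted p of 0.145. Plk1, a mitotic kinase, was at 49.6 ± 20.8 FPKM in Cbx2-/- and 74.7 ± 3.06 FPKM in wild type (limma adjusted p = 0.181). In these 5 genes each Cbx2-/- library lay below each wild-type library.

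Of 12 cell division genes outside the spindle, 5 fell and 0 rose, against 8.31% and 8.8% of all tested genes, with a median difference of -0.82. Of these 12, 8 had an unadjusted p under 0.05, all lower, against 32.5% of all tested genes in either direction. In 11 of the 12 each Cbx2-/- library lay below each wild-type library, against 18.2% of all tested genes. With a wild-type library or Cbx2-/- replicate 1 left out 1 or 2 fell, and without Cbx2-/- replicate 2 or 3 there were 7. With replicate 3 as the only Cbx2-/- library the median difference was -1.43. Mki67, a chromosome surface protein gene widely used to mark cycling cells, was at 58.9, 59.3 and 59.2 FPKM in Cbx2-/- and at 122, 116 and 131 FPKM in wild type, and fell by 1.05 ± 0.15 (SE, limma adjusted p = 0.00377). The 3 Cbx2-/- libraries held nearly the same level of Mki67, replicate 3 included. Pttg1, the securin gene, was at 82.5, 82.8 and 79.7 FPKM in Cbx2-/- and at 182, 135 and 140 FPKM in wild type, and fell too (limma adjusted p = 0.0138). Ccna2, the cyclin A gene, fell with an adjusted p of 0.0493, while Ccnb2, a cyclin B gene, and Ube2c, a ubiquitin carrier of mitotic exit, did not pass (limma adjusted p = 0.0721 and 0.0536).

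Of 19 DNA replication genes, 1 fell and 0 rose, against 8.31% and 8.8% of all tested genes, with a median difference of -0.87. All 19 differences were negative. In 13 each Cbx2-/- library lay below each wild-type library, against 18.2% of all tested genes. At an unadjusted p under 0.05 there were 8, all lower, against 32.5% of all tested genes in either direction. The one that fell was Ccne2, a cyclin E gene (limma adjusted p = 0.0105). With Cbx2-/- replicate 2 or 3 left out 7 fell, and without wild-type replicate 1 or 2 there were 0. With replicate 3 as the only Cbx2-/- library the median difference was -1.71. The 4 most abundant, Pcna, Rrm2, Mcm7 and Tk1, did not pass, with limma adjusted p of 0.1, 0.0712, 0.15 and 0.243. Rrm2, a ribonucleotide reductase subunit gene, was at 128, 177 and 41.3 FPKM in Cbx2-/- and at 306, 252 and 269 FPKM in wild type. The low value in replicate 3 was shared by the list, which summed to 1341, 1723 and 537 FPKM in Cbx2-/- and to 2303, 1929 and 2076 FPKM in wild type.

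The mitotic kinesins summed to 239, 254 and 151 FPKM in Cbx2-/- and to 367, 350 and 388 FPKM in wild type. Divided by the sum of the spindle and cytokinesis partners, this gave 0.248, 0.251 and 0.279 in Cbx2-/- libraries and 0.248, 0.251 and 0.245 in wild-type libraries. Replicate 3 of Cbx2-/- was the highest of the 6, and the other 5 lay close together. Divided by the sum of the other cell division genes, it gave 0.254, 0.247 and 0.283 in Cbx2-/- and 0.227, 0.241 and 0.255 in wild type. Against the DNA replication list the ratios were 0.178, 0.147 and 0.280 in Cbx2-/- and 0.159, 0.182 and 0.187 in wild type, so that Cbx2-/- replicate 3 held less replication transcript for its kinesin transcript than the other libraries.

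**Figure D2:**
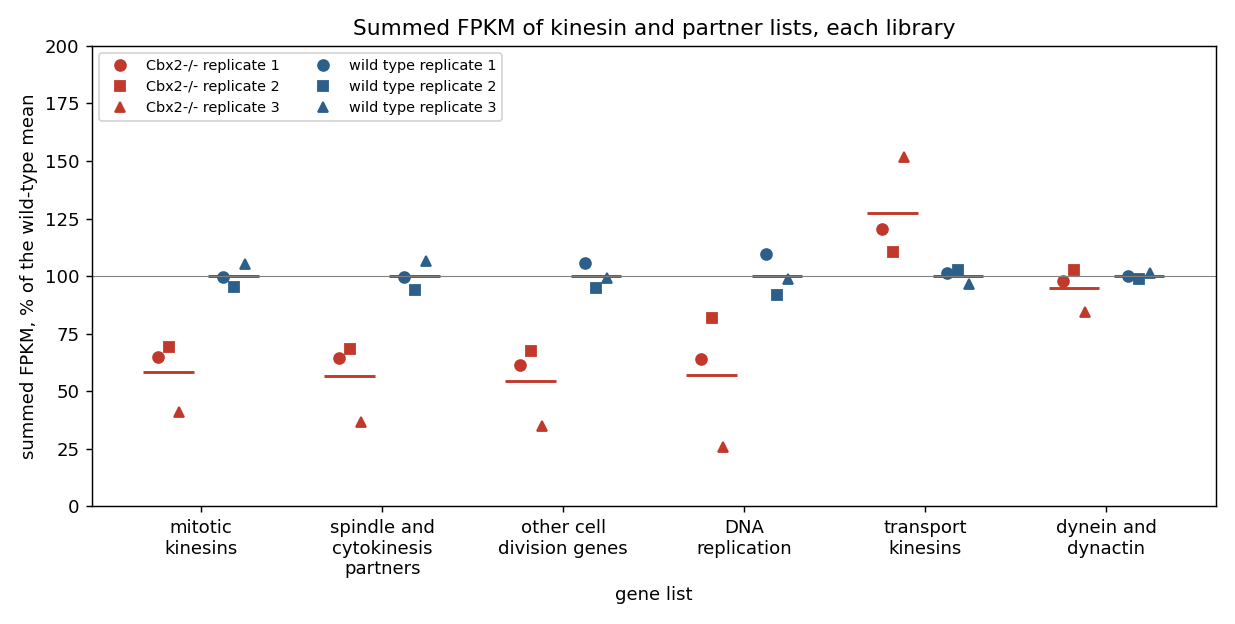
Summed FPKM of 6 gene lists in each library as a percentage of the wild-type mean of that list, Cbx2-/- in red and wild type in blue, with bars at group means. Mitotic kinesins were at 64.8%, 69.0% and 40.9% in Cbx2-/- replicates 1, 2 and 3, close to the spindle partners at 64.6%, 68.1% and 36.4%, while transport kinesins were at 120%, 110% and 152%.

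Markers of the early B cell and erythroid lineages were lower beside the mitotic kinesins, and those of promyelocytes were not. Of 14 early B cell markers 13 fell, against 8.31% of all tested genes. Their summed levels were 116 to 240 FPKM in Cbx2-/- and 1050 to 1320 FPKM in wild type. Of 16 erythroid markers 13 fell, against the same 8.31%, with sums of 1786 to 2329 FPKM in Cbx2-/- and 3938 to 4735 FPKM in wild type. Promyelocyte markers, of another dividing lineage, went up: 4 of 7 rose, against 8.8% of all tested genes. They summed to 5103, 4569 and 2424 FPKM in Cbx2-/- and to 1938 to 2147 FPKM in wild type. Neutrophil markers, of mature cells that no longer divide, rose in 4 of 11 genes, against the same 8.8%. They summed to 58425 to 86094 FPKM in Cbx2-/- and to 38861 to 44002 FPKM in wild type. No marker of these lists was at 0 in all libraries, and the part of each lineage in the kinesin values was not tested.

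The transport kinesins that passed were higher in Cbx2-/- marrow. Of 11 tested, 3 rose (limma adjusted p under 0.05, against 8.8% of all tested genes that rose), 0 fell and 8 did not pass, and 5 had an unadjusted p under 0.05, all higher, against 32.5% of all tested genes in either direction. Each Cbx2-/- library lay above each wild-type library in 5 of the 11, against 21.4% of all tested genes. The median difference was 0.23. Markers of other cell types went both ways, against 8.8% of all tested genes higher and 8.31% lower. Of 7 tested adipocyte markers 6 rose (sums of 2045 to 2644 FPKM in Cbx2-/- and 209 to 413 FPKM in wild type). For endothelium 5 of 8 rose (114 to 157 FPKM in Cbx2-/- and 65.7 to 68.5 FPKM in wild type). For macrophages 4 of 10 rose (1210 to 1500 FPKM in Cbx2-/- and 719 to 852 FPKM in wild type). Of 10 osteoblast markers 7 fell (1042 to 1858 FPKM in Cbx2-/- and 9563 to 15962 FPKM in wild type). Among 10 megakaryocyte, 5 skeletal muscle and 3 Schwann cell markers tested, 0 passed. None of these markers was at 0 in all libraries, and their part in the transport kinesin values was not tested. The 3 calls were lost when FPKM was rescaled to the sum without haemoglobin genes, where 0 passed, and without wild-type replicate 1 or 2, while 1 (Kif13a) passed without wild-type replicate 3. With replicate 3 as the only Cbx2-/- library the median difference was 0.60.

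**Figure D3:**
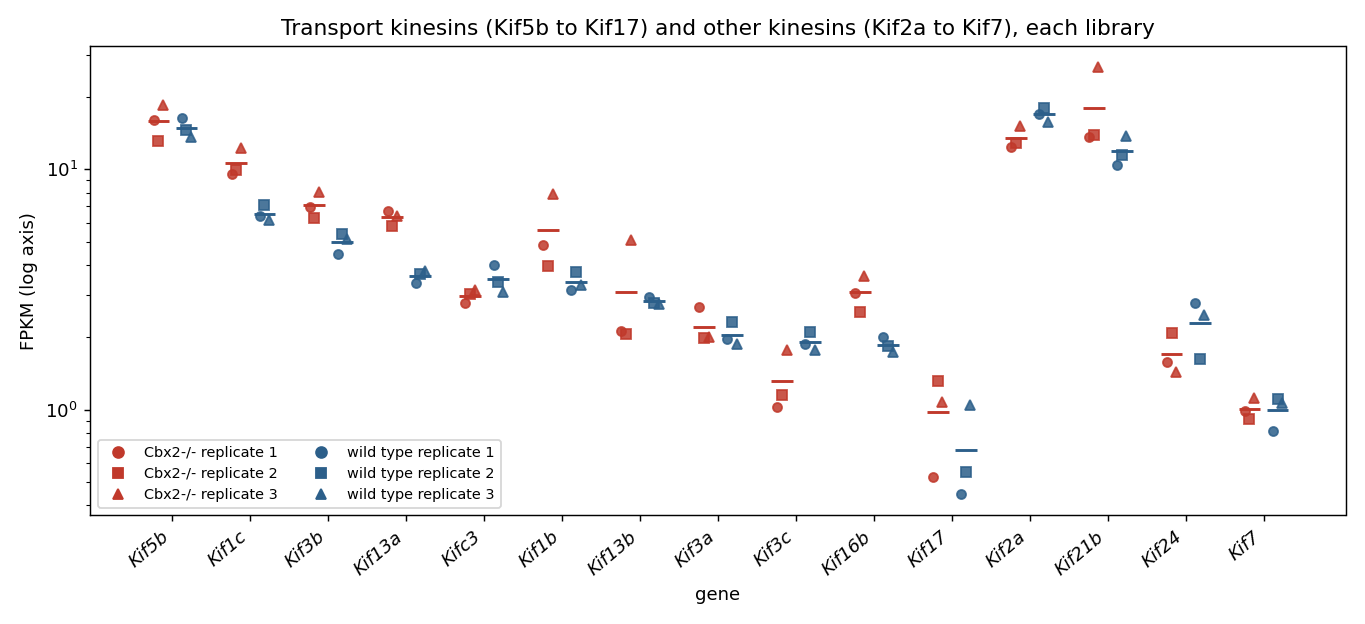
FPKM of the 11 tested transport kinesins, from Kif5b to Kif17, and of the 4 other tested kinesins, from Kif2a to Kif7 (log axis), with 1 marker shape per replicate number, red for Cbx2-/- and blue for wild type, and bars at group means. Kif1c, Kif3b, Kif13a, Kif1b and Kif16b have all red points above the blue ones, and Cbx2-/- replicate 3 stands highest in Kif13b and Kif21b.

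The transport kinesins that rose are all vesicle carriers of the kinesin-3 family. That family also holds the midbody motor Kif14, which fell, so the rise was not shared by the whole family. Kif13a (chromosome 13, 46749087 to 46929867, minus strand), a carrier of recycling endosomes, was at 6.71, 5.79 and 6.40 FPKM in Cbx2-/- and at 3.36, 3.66 and 3.78 FPKM in wild type. It was 1.75-fold higher, by 0.66 ± 0.12 (SE, limma adjusted p = 0.0104). Kif1c (chromosome 11, 70700548 to 70731964, plus strand), a carrier of vesicles and integrins, was at 9.54, 9.96 and 12.3 FPKM in Cbx2-/- and at 6.37, 7.10 and 6.17 FPKM in wild type, 1.62-fold higher (limma adjusted p = 0.0225). Kif16b, a carrier of early endosomes, was at 3.07, 2.55 and 3.60 FPKM in Cbx2-/- and at 1.995, 1.83 and 1.73 FPKM in wild type, with a limma adjusted p of 0.0476 that was lost in 13 of the 20 alternative fits. In these 3 genes the groups were separate in every library.

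The other kinesin-3 carriers did not pass. Kif1b, which carries mitochondria and vesicles, was at 4.86, 3.95 and 7.89 FPKM in Cbx2-/- and at 3.16, 3.73 and 3.31 FPKM in wild type (limma adjusted p = 0.13). Kif13b, a vesicle carrier, was at 2.12, 2.07 and 5.07 FPKM in Cbx2-/- and at 2.94, 2.78 and 2.76 FPKM in wild type. Its difference of 0.02 hides a split: Cbx2-/- replicate 3 was above and replicates 1 and 2 below every wild-type library, and without replicate 3 the difference was -0.31. Kif1a, a carrier of synaptic vesicle precursors, was at most 0.138 FPKM in any library.

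Subunits of kinesin-2, the motor of outward intraflagellar transport, did not pass. Kif3b was at 6.99, 6.28 and 8.05 FPKM in Cbx2-/- and at 4.46, 5.35 and 5.10 FPKM in wild type, with separate groups and a limma adjusted p of 0.066. Its partner subunit Kif3a was at 2.66, 1.98 and 1.996 FPKM in Cbx2-/- and at 1.97, 2.31 and 1.87 FPKM in wild type, with overlapping groups (limma adjusted p = 0.788). The accessory subunit gene Kifap3 was at 3.49, 3.11 and 3.22 FPKM in Cbx2-/- and at 2.52, 2.83 and 2.32 FPKM in wild type, separate but not past the threshold (limma adjusted p = 0.19).

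Kif3c, a partner of Kif3a described in nerve cells, was at 1.02, 1.15 and 1.77 FPKM in Cbx2-/- and at 1.87, 2.1 and 1.77 FPKM in wild type (limma adjusted p = 0.186). The groups overlapped near 1.77 FPKM. Of its 50-base stretches 39.6% also occur in transcripts of other genes, chiefly 1110002L01Rik on the other strand, so its values are uncertain. Kif17, a carrier of dendrites and cilia, was between 0.446 and 1.32 FPKM over the 6 libraries, passed the filter on 3 of them, and had overlapping groups.

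Kif5b, the ubiquitous heavy chain of conventional kinesin (kinesin-1) and the most abundant transport kinesin, was at 16.0, 13.1 and 18.5 FPKM in Cbx2-/- and at 16.3, 14.5 and 13.6 FPKM in wild type. The groups overlapped, with a difference of 0.08 ± 0.16 (SE, limma adjusted p = 0.772). The heavy chains Kif5a and Kif5c, both characteristic of nerve cells, were at most 0.228 FPKM in any library. Among 10 nerve cell markers, Syt1, Nefm and Elavl4 were at 0 in all libraries, and the list summed to 1.79 to 2.205 FPKM in Cbx2-/- and 2.99 to 3.07 FPKM in wild type. The light chain gene Klc1 was at 19.0, 19.8 and 25.7 FPKM in Cbx2-/- and at 23.8, 24.4 and 24.1 FPKM in wild type, and Klc2 at 3.13, 3.38 and 4.89 FPKM in Cbx2-/- and at 3.04, 2.78 and 3.88 FPKM in wild type. Neither passed (limma adjusted p = 0.503 and 0.57).

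The minus-end motor Kifc3, known from apical vesicles and adherens junctions, was at 2.77, 3.03 and 3.14 FPKM in Cbx2-/- and at 4.01, 3.38 and 3.08 FPKM in wild type, with overlapping groups (limma adjusted p = 0.431). Kifc2, described in nerve cells, was between 0.488 and 1.57 FPKM and was not tested. Over the 11 tested transport kinesins, Cbx2-/- replicate 3 was the highest Cbx2-/- library in 8. The whole list of 15 summed to 56.9, 52.1 and 71.7 FPKM in Cbx2-/- and to 47.8, 48.4 and 45.5 FPKM in wild type.

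**Figure D4:**
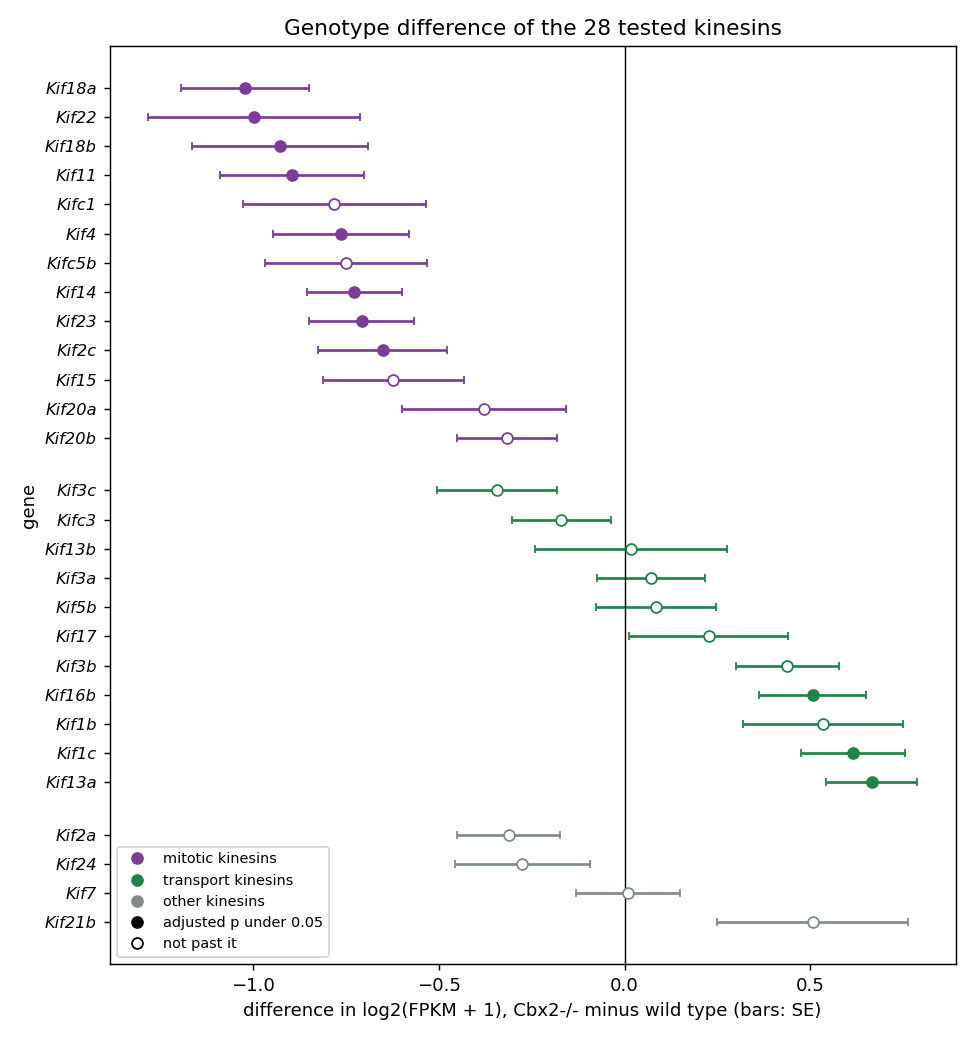
Difference in log2(FPKM + 1), Cbx2-/- minus wild type, of the 28 tested kinesins, with bars of 1 SE; filled points passed an adjusted p of 0.05 and open points did not. Mitotic kinesins run from -1.02 to -0.32, transport kinesins from -0.34 to 0.66 and other kinesins from -0.31 to 0.51.

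Adaptors and the opposite motor gave no common direction. Of 14 tested kinesin light chains and adaptors, 1 fell and 2 rose, against 8.31% and 8.8% of all tested genes, with a median difference of 0.09. Without wild-type replicate 1 or 2, 0 were called in either direction. The number that rose was also 0 with scaling without haemoglobin genes, with TPM scaling and without wild-type replicate 3. The number that fell was also 0 without Cbx2-/- replicate 1. Trak2, an adaptor that links kinesin-1 to mitochondria, was at 28.8, 31.0 and 44.4 FPKM in Cbx2-/- and at 77.8, 74.3 and 62.6 FPKM in wild type, and fell by 1.04 ± 0.20 (SE, limma adjusted p = 0.0121). Fez2, a relative of the kinesin-1 adaptor Fez1, and Plekhm2, which joins kinesin-1 to lysosomes, rose with adjusted p of 0.0253 and 0.04. The small GTPase gene Arl8a, which also acts on lysosomes, was at 28.5 ± 2.95 FPKM in Cbx2-/- and 22.1 ± 0.580 FPKM in wild type (SD, n = 3 each, limma adjusted p = 0.125), and Sdcbp, the most abundant gene of the list, had an adjusted p of 0.468.

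Cytoplasmic dynein is the minus-end motor and dynactin its activator. Of their 21 tested genes 1 fell and 0 rose, against 8.31% and 8.8% of all tested genes. At an unadjusted p under 0.05 there were 3, 2 of them lower, against 32.5% of all tested genes. The median difference was -0.03. The call was lost without wild-type replicate 1 or 3, without Cbx2-/- replicate 1, and with replicate number as a block. The gene that fell, Nde1, is known for roles in dividing cells, at 27.5 FPKM in Cbx2-/- and 47.6 FPKM in wild type on average (limma adjusted p = 0.0159). The 4 most abundant, Dynlrb1, Dctn2, Dynll1 and Dctn3, had overlapping groups and limma adjusted p of 0.345 to 0.696. The list summed to 695, 728 and 600 FPKM in Cbx2-/- and to 710, 702 and 721 FPKM in wild type.

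Of 16 tested intraflagellar transport genes, whose products ride on kinesin-2, 3 fell, against 8.31% of all tested genes, and 0 rose, with a median difference of -0.12. At an unadjusted p under 0.05 there were 5, 4 of them lower, a share near the 32.5% of all tested genes. Ift140 was at 12.1, 21.6 and 12.2 FPKM in Cbx2-/- and at 51.8, 48.1 and 44.7 FPKM in wild type, and fell by 1.64 ± 0.23 (SE, limma adjusted p = 0.00377), a larger difference than that of any kinesin. Ift22 and Ift80 fell too (limma adjusted p = 0.00416 and 0.00934), while the abundant members Ift20, Ift27 and Ift52 did not pass. Of 13 tested tubulin genes, the tracks of these motors, the low-level Tubb2b and Tubb3 fell (limma adjusted p = 0.000716 and 0.00572), against 8.31% of all tested genes. The median difference was -0.56, with 11 of the 13 negative. It was -0.90 with replicate 3 as the only Cbx2-/- library. Tubb3 was also the one nerve cell marker that could be tested. The 4 most abundant, Tubb4b, Tubb5, Tuba1b and Tuba4a, did not pass (limma adjusted p = 0.223 to 0.901), and their lowest value in each case was that of Cbx2-/- replicate 3, as for Tubb5 at 438, 455 and 149 FPKM in Cbx2-/- and 521, 437 and 463 FPKM in wild type.

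The other kinesins were mostly low. Of 12, 4 could be tested, and limma called 0 of them in either direction, against 17.1% of all tested genes, with 0 at an unadjusted p under 0.05. Kif2a, a depolymerase of spindle poles and of nerve cells, was at 12.4, 12.8 and 15.1 FPKM in Cbx2-/- and at 17.0, 18.02 and 15.7 FPKM in wild type, with separate groups (limma adjusted p = 0.162). Of its 50-base stretches 17.9% also occur in the overlapping gene Dimt1. Kif21b, a regulator of microtubule growth, was at 13.6, 13.9 and 26.5 FPKM in Cbx2-/- and at 10.4, 11.5 and 13.7 FPKM in wild type (limma adjusted p = 0.218), and the high value was again that of replicate 3. Kif24, a centriolar depolymerase that holds back cilium formation, was at 1.58, 2.09 and 1.43 FPKM in Cbx2-/- and at 2.77, 1.62 and 2.48 FPKM in wild type. Kif7, a Hedgehog pathway regulator of the cilium tip, was at 0.983, 0.914 and 1.12 FPKM in Cbx2-/- and at 0.812, 1.11 and 1.06 FPKM in wild type.

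The remaining 14 rows did not reach the filter. Kif26a, a kinesin without motor activity that acts in signalling, was the closest to it with Kifc2, at 1.04, 1.46 and 0.972 FPKM in Cbx2-/- and at 0.529, 0.638 and 0.607 FPKM in wild type. The other kinesins Kif9, Kif19a, Kif21a, Kif6, Kif26b and Kif27 stayed under 1 FPKM, with Kif9 the highest of them at 0.891 FPKM. Kif12, a kinesin of kidney and liver epithelium, Kif2b and the pseudogene Kif4-ps were listed at 0 in all 6 libraries.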

How the data were processed

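Per the labels' protocols, libraries were stranded and poly(A)-selected, from 1 animal each, and read as 50-base single-end reads. Per the submitters' processing notes, the tools were Cufflinks 2.2.1, TopHat2 2.1.0 and FastQC 0.11.5 on build mm10, without roles or settings. The authors deposited FPKM values per gene and library. Their confidence limits equalled each other in every row and were not used, and no kinesin had a status other than OK. Summed FPKM was 599601 to 741192. Read depth is unknown and no counting interval is given. Overlapping or similar genes are uncertain, since no source used here states whether strand was used in counting.

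The analysis took log2(FPKM + 1), which understates changes of low genes, with limma 3.58.1 in R 4.3.3 (trend, two-sided, no covariate) and Benjamini-Hochberg adjustment over 12006 genes. The script was tested on simulated data. Members and lists were chosen with earlier results of these data known. Every kinesin row may be named, and of each pathway list the 4 tested genes with the highest mean FPKM, plus Cenpe, Racgap1, Prc1, Aurkb, Kifap3, Klc1, Klc2 and Mki67. Ccne2, Fez2, Plekhm2, Nde1, Ift22, Ift80, Tubb2b and Tubb3 were named after their values were seen. Positions and 50-base stretches are from GENCODE vM21 (GRCm38, counted from 1), with both strands compared. Figures were drawn with matplotlib 3.10.9. Alternatives were 20: pseudocounts, filters, scalings, limma settings, covariates and libraries left out.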

Additional observations from a re-analysis of the deposited data

How the results depend on the processing

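All 13 mitotic differences stayed negative in the 20 alternatives, while the number that passed varied. It was 8 with all libraries, 5 with no filter on low values and 5 with the Y-linked covariate. With TPM, median-of-ratios or upper-quartile scaling, or scaling without haemoglobin genes, it was 11. Array weights and the muscle covariate each gave 12, and leaving 1 library out gave 2 to 12. Whether the replicate numbers pair the animals is not known. Deviations from the group means correlated at 0.19, -0.18 and -0.10 between same-numbered libraries, and at -0.26 to 0.27 between differently numbered ones. Replicate 1 of each genotype shared Y-linked transcripts. With the replicate block 3 mitotic kinesins fell and 1 transport kinesin rose. That block gave 634 higher genes over the whole table, against 1057 without it.

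Transport kinesins that rose numbered 3, against 1 with TPM scaling and 0 with scaling without haemoglobin genes. There were 5 with array weights, 6 with the muscle covariate, and 0 to 3 with 1 library left out. Those that fell numbered 0, against 1 with array weights and 0 to 1 with 1 library left out. Of the other kinesins 0 fell, against 1 with array weights and 0 to 1 with 1 library left out. None rose, against 1 with the muscle covariate.

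Over all tested genes, 998 lower became 2684 with array weights, 2711 with the muscle covariate, 2714 without both libraries and 475 to 1719 with 1 library left out. The 1057 higher became 598 without haemoglobin genes in the scaling, 3278 with array weights, 2151 with the muscle covariate, 2047 without both libraries and 367 to 2069 with 1 left out. The log2 difference of Cbx2 passed with array weights, at -0.42, and ranged from -0.56 to -0.37 with 1 library left out, passing without Cbx2-/- replicate 3. The cause of these shifts was not tested.

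The log2 differences that changed sign belonged to genes that had not passed. The genes named after their values were seen were not refitted singly. With array weights Kif13b was at -0.281, Kif17 at -0.0374, Kif7 at -0.000508, Klc2 at -0.00286 and Tuba4a at 0.17. With a pseudocount of 0.1 Kif13b was at -0.00247, and with median-of-ratios scaling Kif7 was at -0.00399. With the muscle covariate Klc1 was at 0.0585 and Dctn2 at -0.0422. With both Cbx2-/- libraries with muscle transcripts left out, Klc1 was at 0.089, Dctn2 at -0.053 and Kif3a at -0.0224. With 1 library left out the ranges were -0.0269 to 0.21 for Kif5b, -0.306 to 0.186 for Kif13b, -0.0263 to 0.132 for Kif3a, -0.0587 to 0.0519 for Kif7, -0.281 to 0.0445 for Dynlrb1, -0.00587 to 0.256 for Dctn2, -0.476 to 0.046 for Ift27 and -0.234 to 0.23 for Tuba4a. With 3 animals a genotype and relative values, small differences of low kinesins cannot be resolved.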
